A study of Mus musculus with 11 samples.

Results

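The unfolded protein response was followed through 10 genes: *Ern1*, *Atf6* and *Xbp1*, which sense or transmit stress of the endoplasmic reticulum (ER), the ER chaperones and folding enzymes *Hspa5*, *Hsp90b1*, *Pdia4*, *Dnajb9* and *Sdf2l1*, and the ER luminal factors *Creld2* and *Manf*. They were chosen by name as known ER stress genes, and all 10 were found among the 53801 gene identifiers of the count files. All 10 also passed the filter on low counts in each comparison. When unfolded proteins collect in the ER, the kinase and endonuclease IRE1α (encoded by *Ern1*) splices *Xbp1* mRNA so that it encodes an active transcription factor, ATF6 is cut by Golgi proteases into a nuclear transcription factor, and the kinase PERK slows translation and favours production of ATF4. XBP1 and ATF6 raise transcription of chaperone genes such as *Hspa5*, which encodes BiP, whereas ATF4 drives amino acid and redox genes. In the developing brain these branches are known to help secretory and rapidly dividing progenitors to fold their membrane and secreted proteins.

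RNA came from neural stem and progenitor cell (NPC) cultures grown with EGF and bFGF from brains of E13.5 mouse embryos of a mixed C57BL/6 and 129SV strain, and every embryo carried floxed *Smg6* alleles (Smg6 Flox/Flox). SMG6 is an endonuclease of nonsense-mediated mRNA decay. The Ctr group held RosaCreER tg/+ cells of embryos SMH_128, SMH_132 and SMH_133 without treatment. The Ctr + 4-OHT group held cells without the Cre transgene (RosaCreER +/+) of embryos SMH_125, SMH_126, SMH_129 and SMH_131, given 1 µM 4-hydroxytamoxifen (4-OHT), the compound that activates CreER. The *Smg6*-iKO group held RosaCreER tg/+ cells of embryos SMH_127, SMH_128, SMH_132 and SMH_133 given the same 4-OHT, so 3 embryos gave a library to both Ctr and *Smg6*-iKO. RNA was taken 6 days after 4-OHT was first added. The sources used here do not give the same length of exposure, with 3 days in the sample labels and 6 days elsewhere. The Cre is expressed from the Rosa26 locus and is therefore not limited to a cell type. Ctr + 4-OHT and Ctr differed in treatment and in the CreER transgene at once, so effects of these 2 factors cannot be told apart. *Smg6*-iKO differed from Ctr + 4-OHT in the CreER transgene as well as in the deletion, and from Ctr in 4-OHT treatment as well as in the deletion, and these cannot be told apart within either contrast.

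Each of the 11 libraries held between 26418249 and 33756875 counts, and levels are given as CPM, counts scaled to the TMM-normalized size of the library, with their SD over 4 libraries of *Smg6*-iKO, 4 of Ctr + 4-OHT and 3 of Ctr. For *Smg6* itself the level in *Smg6*-iKO was 66.0 ± 4.57 CPM, and it was 69.3 ± 3.22 CPM in Ctr + 4-OHT and 74.4 ± 4.96 CPM in Ctr. These totals over the whole gene do not show whether the floxed exons were lost. All 9 NPC markers were above 1 CPM in the mean of every group, with a summed level between 4375 and 5505 CPM, while all 5 microglial and all 4 erythroid markers were below 1 CPM. In sum, the 6 neuronal markers had 1488 to 2447 CPM, the 4 astrocyte markers 428 to 516 CPM and the 5 oligodendrocyte lineage markers 402 to 621 CPM. The 4 endothelial markers had 4.38 to 7.35 CPM. The 5 fibroblast and meningeal markers ranged between libraries from 85.7 to 537 CPM in sum, the highest being *Smg6*-iKO of embryo SMH_127, and the 4 choroid plexus markers from 17.2 to 167 CPM, the highest being *Smg6*-iKO of embryo SMH_128. The choroid plexus sum was mostly *Ttr*, with means of 54.2, 111 and 82.8 CPM in Ctr, Ctr + 4-OHT and *Smg6*-iKO. No other choroid plexus marker had a group mean above 1.62 CPM. *Vim*, *Fabp7* and *Nes* made up most of the NPC sum, with means of 2238, 1524 and 825 CPM in Ctr. In bulk RNA, fewer cells of a type and less RNA per cell cannot be told apart.

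Some of these genes share a promoter element. The ER stress response element (ERSE), bound by ATF6 together with NF-Y, was searched as CCAAT and CCACG separated by 9 bases of any kind, on both strands, in RefSeq promoters of GRCm38.p6 that run from 250 bases before to 50 bases after a start site. Of 8 of the genes with a promoter in that table, 3 held an ERSE, against 37 of 27025 genes (0.137%) and 5 of 28 further folding genes of the ER (*Calr*, *Canx*, *Pdia6*, *Dnajc3* and *Ero1b*). *Atf6* and *Manf* were not in it. The genes were chosen as known ER stress genes, so these counts are descriptions and not a test of the element. The matches are shown 5′ to 3′ on the strand of the gene, with the element in capitals, because the ERSE is the element through which ATF6 is known to act.
*Hspa5*, chr2:34772025-34772043, plus strand gene: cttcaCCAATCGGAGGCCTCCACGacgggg
*Hsp90b1*, chr10:86705638-86705656, minus strand gene: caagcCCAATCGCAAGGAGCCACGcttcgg
*Hsp90b1*, chr10:86705533-86705551, element on the opposite strand: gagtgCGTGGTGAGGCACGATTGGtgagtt
*Creld2*, chr15:88819520-88819538, plus strand gene, element on the opposite strand: cttctCGTGGCGAGCCTCAATTGGtccaca
The elements lay from -65 to -47 in *Hspa5*, from -212 to -194 and from -107 to -89 in *Hsp90b1*, and from -126 to -108 in *Creld2*, counted from the RefSeq start site as 0. In *Hspa5* the element lies inside the Ensembl gene, which begins upstream at 34771970. The same holds for the whole *Dnajb9* window before its start site, since the Ensembl gene begins upstream at 44210326, and sequence before that position was not searched. *Dnajb9*, whose level differed most between groups, had no ERSE in the window and is shown with its CCACG matches, from -108 to -104 and from -15 to -11, in capitals.
*Dnajb9*, chr12:44210172-44210176, minus strand gene: aacaacagttttCCACGtgcgcgtagggcg
*Dnajb9*, chr12:44210079-44210083, minus strand gene: cggtcgcgccagCCACGggctcccgccagt
CCACG alone occurred in 7 of the 8 genes and in 35.5% of all genes, and CCAAT alone in 6 of the 8 and in 41.1%; both are parts of the ERSE. The ERSE-II (ATTGG, 1 base, CCACG) was found in 0 of the 8, 1 of the 28 folding genes and 0.0444% of genes, and the XBP1-bound element searched as TGACGTGG in 0 of the 8, 2 of the 28 and 0.714%. A match is a description of letters and not a shown binding site.

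All 10 genes were expressed in every library, over a wide range of levels. Per kilobase of gene model, the mean over the 11 libraries was 169 CPM per kb for *Hsp90b1*, 114 for *Hspa5* and 84.5 for *Pdia4*, and the ranges of these 3 genes did not overlap. *Xbp1* (22.4 CPM per kb) and *Manf* (20.6) overlapped in their ranges, and *Creld2* (15.5) and *Sdf2l1* (11.1) followed. *Atf6* (7.08) and *Dnajb9* (6.58) again overlapped, and the sensor *Ern1* was lowest with 1.97 CPM per kb. The coefficient of variation over the libraries, groups pooled, lay between 4.42% for *Manf* and 12.1% for *Dnajb9*, so that between the lowest and the highest library no gene changed by more than 1.51-fold. Read numbers ranged from 269 to 422 counts for *Sdf2l1* to 16192 to 23706 counts for *Hsp90b1*.

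**Figure D1:**
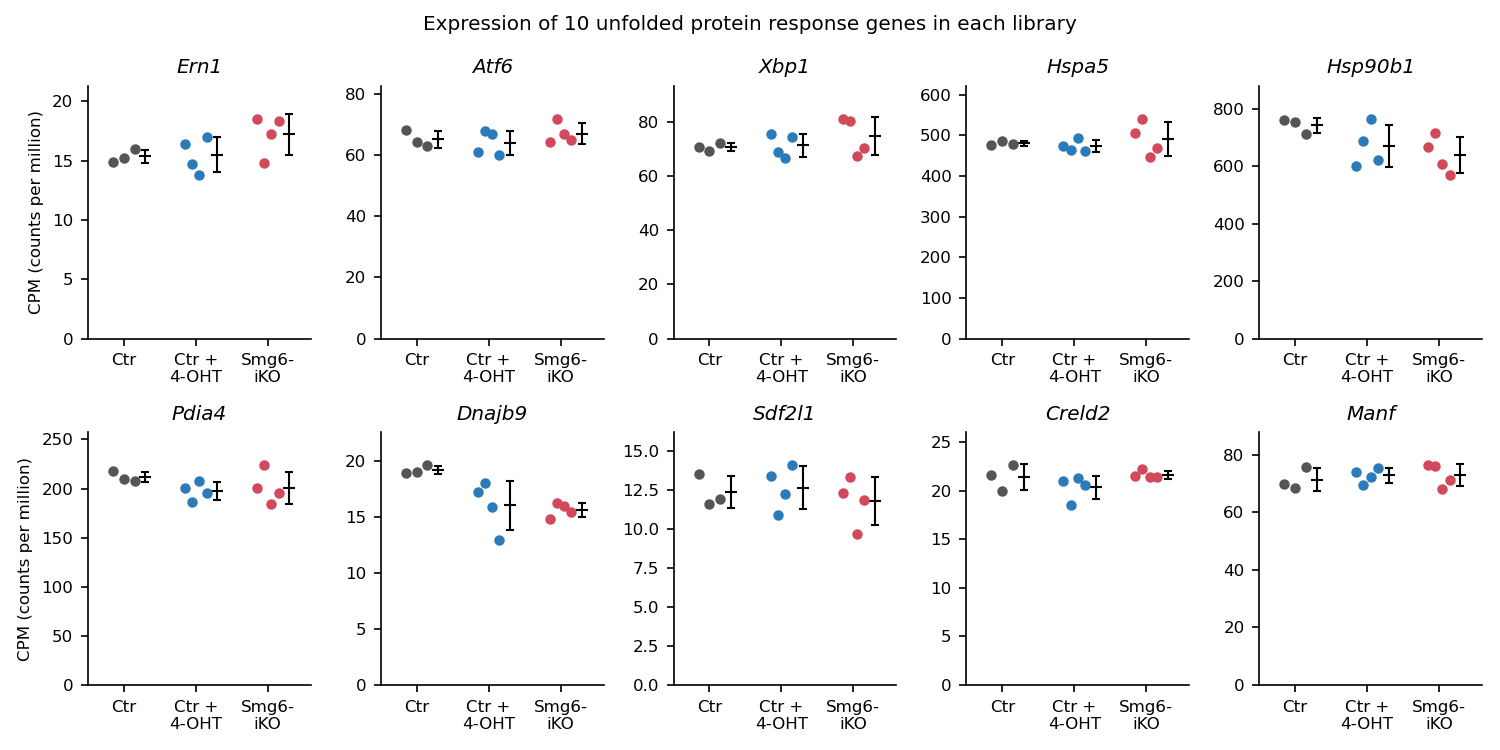
CPM of each of the 10 genes (vertical axes from 0) in Ctr, Ctr + 4-OHT and *Smg6*-iKO, with 1 point per library and the mean ± SD beside the points. The groups overlap for most genes, whereas all 4 *Smg6*-iKO and all 4 Ctr + 4-OHT points of *Dnajb9* lie below the 3 Ctr points.

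*Smg6*-iKO was compared first with Ctr + 4-OHT, the cells without CreER that also received 4-OHT, and none of the 10 passed the threshold of an adjusted p under 0.05 (edgeR's quasi-likelihood test with Benjamini-Hochberg adjustment over all genes), where 1.17% of 17558 genes did. None had an unadjusted p under 0.05 either, where 16.7% of all genes did, and DESeq2's Wald test and limma-voom also called 0 of the 10. The log2 fold changes ran from -0.090 for *Sdf2l1* to 0.17 for *Ern1*, with a median of 0.049 beside 0.012 over all genes tested. Against untreated Ctr, 1 of the 10 passed, *Dnajb9*, which was lower, where 9.25% of 17974 genes passed. An unadjusted p under 0.05 was found for 2 of the 10, *Dnajb9* and *Hsp90b1*, and for 26.9% of all genes. The median was 0.025 over the 10 genes and 0.0055 over all genes. Between Ctr + 4-OHT and Ctr, 0 of the 10 passed with any of the 3 tools, where 0.221% of 17665 genes passed with edgeR, and 1 had an unadjusted p under 0.05, as had 8.28% of all genes. The comparisons share libraries, namely those of *Smg6*-iKO or of Ctr, and are therefore not independent of each other.

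**Figure D2:**
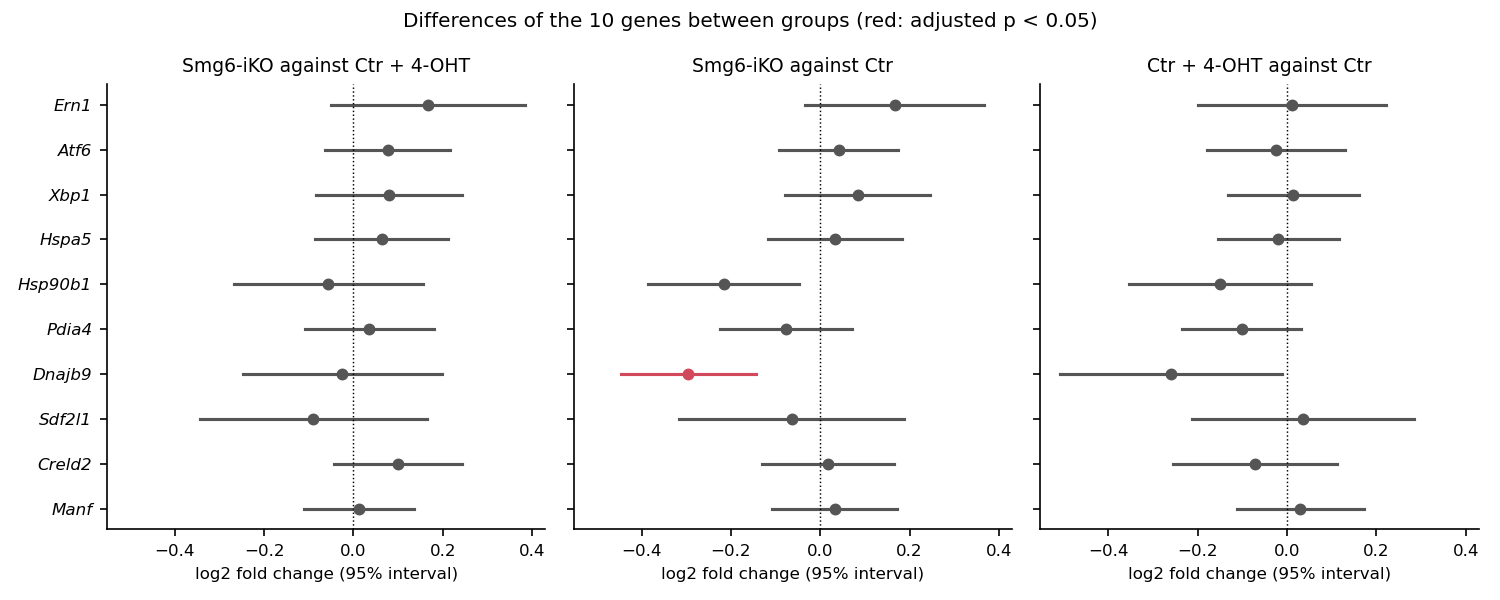
Log2 fold change with its 95% interval for each gene in the 3 comparisons (horizontal axes, one row per gene), red where the adjusted p was under 0.05. Only *Dnajb9* in *Smg6*-iKO against Ctr is red, at -0.30, and its interval against Ctr + 4-OHT covers 0.

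Among the sensors, *Ern1* (ENSMUSG00000020715, chr11:106394650-106487852 of GRCm38), which encodes IRE1α, had the highest log2 fold change of the 10 genes against both controls, without passing the test. Its level was 18.5, 14.8, 17.2 and 18.4 CPM in *Smg6*-iKO of embryos SMH_127, SMH_128, SMH_132 and SMH_133, and 14.9, 15.2 and 15.96 CPM in Ctr of embryos SMH_128, SMH_132 and SMH_133. In Ctr + 4-OHT it was 16.4, 14.7, 13.8 and 17.0 CPM in embryos SMH_125, SMH_126, SMH_129 and SMH_131. Of the 4 *Smg6*-iKO libraries, 3 stood above every control library, and that of embryo SMH_128 lay below every Ctr library, so the groups overlapped. On the log2 scale *Smg6*-iKO exceeded Ctr + 4-OHT by 0.17 (SE 0.098, adjusted p = 0.428) and Ctr by 0.17 (SE 0.091, adjusted p = 0.267), within the spread of the libraries, and the upper ends of the 95% intervals were 30.6% and 29.0% above the control.

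*Atf6* (ENSMUSG00000026663, chr1:170704674-170867771), the membrane-bound transcription factor that is released by proteolysis, lay between 60.1 and 71.8 CPM in all libraries. Its means were 66.9 ± 3.37 CPM in *Smg6*-iKO, 63.9 ± 3.96 CPM in Ctr + 4-OHT and 65.1 ± 2.67 CPM in Ctr, which differed by less than their SD. The log2 fold change of *Smg6*-iKO was 0.077 against Ctr + 4-OHT (adjusted p = 0.585) and 0.041 against Ctr (adjusted p = 0.712). *Xbp1* (ENSMUSG00000020484, chr11:5520659-5525893), whose mRNA is the substrate of IRE1α, had 81.3, 80.7, 67.4 and 70.7 CPM in *Smg6*-iKO of embryos SMH_127, SMH_128, SMH_132 and SMH_133. The Ctr libraries had 70.7, 69.3 and 72.5 CPM, and the Ctr + 4-OHT libraries 75.6, 69.2, 66.7 and 74.6 CPM. The *Smg6*-iKO libraries of embryos SMH_127 and SMH_128 were thus the highest of all for *Xbp1*, while the other two lay within the control range. In *Smg6*-iKO of embryos SMH_127 and SMH_128 the fibroblast and meningeal markers also summed highest of the group (537 and 204 CPM). In embryos SMH_132 and SMH_133 of this group they summed to 85.7 and 178 CPM, and the part of these markers was not tested. The difference in *Xbp1* on the log2 scale was 0.080 to Ctr + 4-OHT (95% interval from -5.68% to 18.4%, adjusted p = 0.636) and 0.083 to Ctr (-5.38% to 18.6%, adjusted p = 0.510). Gene totals do not separate spliced from unspliced *Xbp1*, so activity of IRE1α was not measured.

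*Hspa5* (ENSMUSG00000026864, chr2:34771970-34777547), which encodes the central ER chaperone BiP, is the most used indicator of the response. It had 507, 540.1, 447 and 469 CPM in *Smg6*-iKO of embryos SMH_127, SMH_128, SMH_132 and SMH_133. It had 476, 486 and 477 CPM in Ctr, and 474, 463, 494 and 461 CPM in Ctr + 4-OHT. The control libraries lay close together, and *Smg6*-iKO libraries fell on both sides of them, with embryos SMH_127 and SMH_128 above all 7 control libraries and embryo SMH_132 below them. The difference was within this spread, with a log2 fold change of 0.063 against Ctr + 4-OHT (SE 0.067, adjusted p = 0.689) and 0.032 against Ctr (SE 0.068, adjusted p = 0.807). The 95% intervals reached from -5.78% to 15.8% and from -7.82% to 13.46%.

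*Hsp90b1* (ENSMUSG00000020048, chr10:86690209-86705509) encodes GRP94, the HSP90 chaperone of the ER, and had the highest level per length of the 10 genes. The Ctr libraries had 762, 756 and 715 CPM and the *Smg6*-iKO libraries 666, 716, 608 and 570.2 CPM, in the order of embryos used above. The Ctr + 4-OHT libraries had 603, 691, 766 and 623 CPM. *Smg6*-iKO of embryo SMH_128 just exceeded the lowest Ctr library, and the other *Smg6*-iKO libraries were below all Ctr libraries. Without regard to the embryo, the log2 fold change was -0.22 against Ctr (SE 0.076, adjusted p = 0.0988) and -0.056 against Ctr + 4-OHT (SE 0.095, adjusted p = 0.819). A fit with the embryo as a block compares libraries of the same animal. The contrast then rests on the 3 embryos with both libraries, as *Smg6*-iKO of embryo SMH_127 has no Ctr library. In this fit *Hsp90b1* was lower in *Smg6*-iKO than in Ctr by a log2 fold change of -0.24 (SE 0.053, 95% interval from -21.8% to -8.60%, adjusted p = 0.00367). It was lower in 3 of 3 embryos, by 6.00%, 19.5% and 20.2% in embryos SMH_128, SMH_132 and SMH_133. The mean of Ctr + 4-OHT, 670.4 ± 73.9 CPM, lay between that of Ctr, 744 ± 25.6 CPM, and that of *Smg6*-iKO, 640.2 ± 64.2 CPM. The difference between the 2 control groups did not pass the test (log2 fold change -0.15, adjusted p = 0.698).

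*Dnajb9* (ENSMUSG00000014905, chr12:44205559-44210326) encodes ERdj4, a co-chaperone of BiP that also represses IRE1α, and its transcription is known to respond to XBP1. The Ctr libraries had 19.0, 19.0 and 19.6 CPM, and the *Smg6*-iKO libraries 14.9, 16.2, 16.03 and 15.5 CPM. The Ctr + 4-OHT libraries had 17.2, 18.0, 15.96 and 13.0 CPM. Every *Smg6*-iKO library was below every Ctr library, which held for 1 of the 10 genes and for 23.3% of all genes tested in that comparison, counting either direction. *Dnajb9* fell by 0.30 on the log2 scale against Ctr (SE 0.069, 95% interval from -26.6% to -9.46%, adjusted p = 0.0267), and with the embryo as a block the log2 fold change was -0.27 (adjusted p = 0.0143). Leaving out any library other than *Smg6*-iKO of embryo SMH_128 ended the call, with adjusted p from 0.0519 to 0.0760, and so did fitting all 11 libraries together (adjusted p = 0.102). Against Ctr + 4-OHT the log2 fold change was -0.025 (SE 0.10, 95% interval from -15.8% to 14.7%, adjusted p = 0.931). The Ctr + 4-OHT libraries of *Dnajb9* also lay below all Ctr libraries, with a log2 fold change of -0.26 that did not pass the test after adjustment (SE 0.11, unadjusted p = 0.0420, adjusted p = 0.584). The fall thus passed the test against untreated cells and not against cells given 4-OHT, and the 2 contrasts were not tested against each other.

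With the embryo as a block, 2 of the 10 genes passed, *Hsp90b1* and *Dnajb9*, both lower, where 21.4% of all genes passed. NPC markers moved in the same comparison, 6 of 9 passing the test without the block and lower, *Hes5* most (-1.28), where 9.25% of all genes passed and 4.98% passed and were lower. Their summed level was 4375 to 4958 CPM in *Smg6*-iKO and 5079 to 5279 CPM in Ctr, which did not overlap, and that of the 6 neuronal markers was 1885 to 2141 CPM against 1630 to 1780 CPM. Within groups, *Hsp90b1* followed the sum of NPC markers over the 11 libraries (r = 0.877, from deviations of log2 CPM from group means) and *Dnajb9* less so (r = 0.154). The part of these markers in the lower *Hsp90b1* and *Dnajb9* was not tested. *Hsp90b1* overlaps the gene Gm15344 on the same strand (60 to 107 counts), and reads shared by both were not counted for either.

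**Figure D3:**
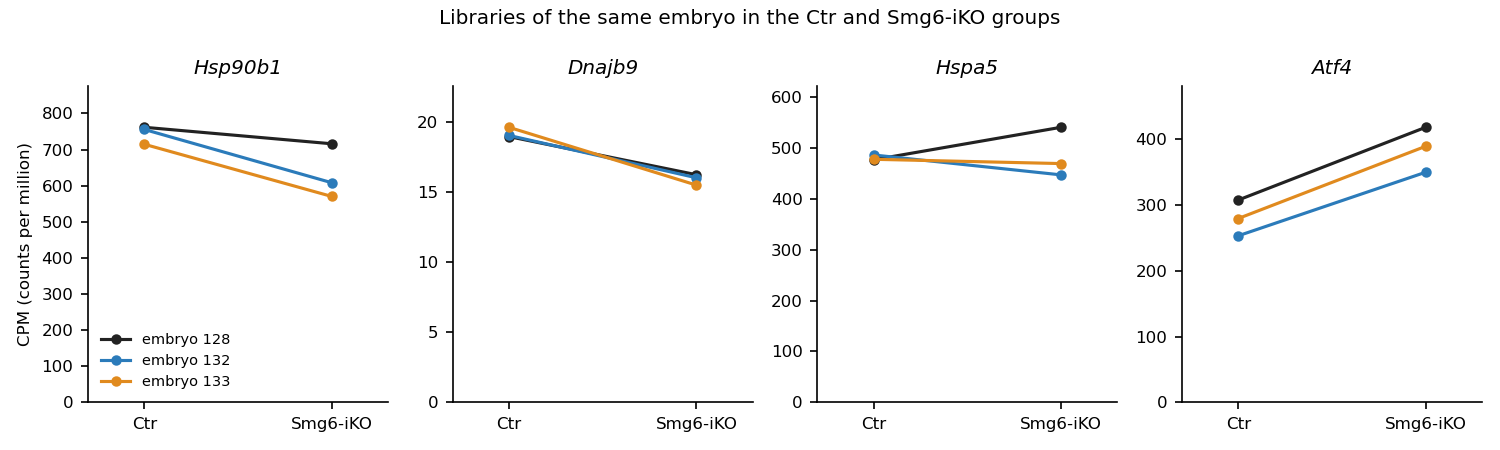
CPM of *Hsp90b1*, *Dnajb9*, *Hspa5* and, for the ATF4 branch, *Atf4* (vertical axes from 0) in the Ctr and the *Smg6*-iKO library of embryos SMH_128, SMH_132 and SMH_133, with lines joining libraries of one embryo. *Hsp90b1* and *Dnajb9* are lower in *Smg6*-iKO in all 3 embryos, *Atf4* is higher in all 3, and *Hspa5* is higher in embryo SMH_128 and lower in the other two.

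*Pdia4* (ENSMUSG00000025823, chr6:47796141-47813430), a protein disulfide isomerase, had 218, 209.7 and 208 CPM in Ctr and 200.1, 224, 185 and 195 CPM in *Smg6*-iKO. The Ctr + 4-OHT libraries had 201, 186, 208 and 196 CPM. *Smg6*-iKO of embryo SMH_128 was above and the other 3 were below all Ctr libraries, and no difference passed the test (log2 fold change 0.035 against Ctr + 4-OHT, adjusted p = 0.836, and -0.077 against Ctr, adjusted p = 0.501). The 4 Ctr + 4-OHT libraries of *Pdia4* were all below the lowest Ctr library (207.9 against 208.2 CPM for the closest pair), with a log2 fold change of -0.10 (adjusted p = 0.696). With *Dnajb9*, 2 of the 10 genes had such separated control groups, against 8.71% of all genes.

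*Sdf2l1* (ENSMUSG00000022769, chr16:17130140-17132383), which keeps client proteins soluble in a complex with an ER co-chaperone, was the gene with the lowest counts and had wide intervals. Its means were 11.8 ± 1.55 CPM in *Smg6*-iKO, 12.6 ± 1.39 CPM in Ctr + 4-OHT and 12.3 ± 1.03 CPM in Ctr. The lowest library of all, with 9.67 CPM, was *Smg6*-iKO of embryo SMH_132. The 95% interval of the difference reached from -21.2% to 12.1% against Ctr + 4-OHT (adjusted p = 0.749) and from -19.7% to 14.0% against Ctr (adjusted p = 0.768).

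*Creld2* (ENSMUSG00000023272, chr15:88819646-88826683), a secreted ER stress-inducible factor, had 21.5, 22.3, 21.5 and 21.4 CPM in *Smg6*-iKO. The Ctr + 4-OHT libraries had 21.0, 18.6, 21.3 and 20.6 CPM, all lower, and the Ctr libraries 21.6, 20.0 and 22.6 CPM, on both sides. *Creld2* was the 1 gene of the 10 whose *Smg6*-iKO and Ctr + 4-OHT libraries did not overlap, as was the case for 11% of all genes tested. The log2 fold change of 0.10 did not pass the test (SE 0.064, 95% interval from -2.98% to 18.3%, adjusted p = 0.477), and it was 0.017 against Ctr (adjusted p = 0.903). *Manf* (ENSMUSG00000032575, chr9:106838312-106891979), a secreted neurotrophic factor held in the ER by BiP, varied least of the 10 genes, between 68.2 and 76.3 CPM. Relative to Ctr + 4-OHT its log2 fold change was 0.013 (95% interval from -7.38% to 9.92%, adjusted p = 0.935) and relative to Ctr 0.032 (-7.26% to 12.7%, adjusted p = 0.796). The gene model of *Manf* overlaps *Rbm15b* on the same strand, which had 3276 to 4356 counts of its own, and reads shared by both were not counted.

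Around these genes, the wider pathway was taken from 5 lists. Against Ctr + 4-OHT, 0 of 32 further chaperones and folding enzymes, 0 of 24 genes of ER-associated degradation, 0 of 22 genes of translocation and N-glycosylation and 0 of 10 further sensors and regulators passed the test, and 1 of 12 genes of the PERK and ATF4 branch did, where 1.17% of all genes passed. The medians of the log2 fold changes were -0.020, -0.047, -0.089, -0.0075 and 0.16 in this order, beside 0.012 over all genes. The gene that passed was *Atf4* itself, with a log2 fold change of 0.38 (SE 0.075, adjusted p = 0.0407), higher in all 4 *Smg6*-iKO libraries (349 to 418 CPM) than in any control library (253 to 322 CPM). The call of *Atf4* was lost with the gene length offset (adjusted p = 0.0686) and when any 1 of the 8 libraries was left out (adjusted p = 0.0530 to 0.136). Closest to the threshold in the other lists were *Creb3l1*, an ER-anchored transcription factor (0.50, adjusted p = 0.119), the ER peroxiredoxin *Prdx4* (-0.26, adjusted p = 0.163), the mannosidase *Man1b1* (0.15, adjusted p = 0.144) and the signal peptidase subunit *Spcs3* (-0.20, adjusted p = 0.139).

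Against Ctr, 7 of 12 genes of the PERK and ATF4 branch rose, where 4.27% of all genes passed and were higher and 4.98% passed and were lower. Among the 7 were *Slc7a11*, the cystine transporter (0.84, adjusted p = 0.0315), *Trib3* (0.75, adjusted p = 0.00300) and *Atf3* (0.57, adjusted p = 0.0285), and *Atf4* rose by 0.48 (adjusted p = 0.00727). The calls of *Trib3* and *Atf4* were kept without any 1 of the 7 libraries. Those of *Slc7a11* and *Atf3* were each lost in 4 of these 7 fits, without *Smg6*-iKO of embryo SMH_133 and, for *Slc7a11*, any Ctr library (adjusted p = 0.0591 to 0.119) or, for *Atf3*, Ctr of embryos SMH_128 and SMH_132 or *Smg6*-iKO of embryo SMH_127 (0.0661 to 0.102). The median of this list was 0.35, beside 0.0055 over all genes. Not among the 7 were *Ddit3*, with 51.2 ± 4.84 CPM in *Smg6*-iKO and 55.1 ± 8.05 CPM in Ctr, and *Sesn2*, with 85.1 ± 3.90 and 85.0 ± 5.02 CPM. *Eif2ak3*, which encodes PERK, had 96.8 to 108.4 CPM in *Smg6*-iKO and 108.5 to 110.6 CPM in Ctr, without a call. Groups without overlap were found for 23.3% of all genes. *Creb3l1* passed narrowly in the list of sensors and regulators (0.50, adjusted p = 0.04998), and the call was lost under 5 of 10 other settings and without any library but *Smg6*-iKO of embryo SMH_128 (adjusted p = 0.0691 to 0.151). The highest library of *Creb3l1*, *Smg6*-iKO of embryo SMH_127, was also the one with the highest fibroblast and meningeal markers, whose part in this was not tested. Among 22 genes of translocation and N-glycosylation, the oligosaccharyltransferase subunits *Stt3a* (-0.28, adjusted p = 0.0314) and *Rpn2* (-0.20, adjusted p = 0.0414) fell, and 21 of the 22 had a log2 fold change below 0, as had 49.0% of all genes, with a median of -0.14. Both calls were lost without any library but *Smg6*-iKO of embryo SMH_128 (adjusted p = 0.0548 to 0.111 for *Stt3a* and 0.0765 to 0.121 for *Rpn2*). They were also lost with all 11 libraries in one fit (0.0695 and 0.0875), and that of *Rpn2* without a filter (0.0568) and with upper-quartile normalization (0.0606). None of the 32 folding genes and none of the 24 degradation genes passed, with medians of -0.062 and -0.033; the smallest adjusted p were those of the lectin chaperone *Calr* (-0.22, adjusted p = 0.0586) and the ubiquitin-conjugating enzyme *Ube2g2* (0.19, adjusted p = 0.0566).

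With the embryo as a block, 6 of the 32 folding genes fell and none rose, namely *Prdx4*, *Calr*, *Ppib*, *Canx*, *P4hb* and *Sil1*. In the same fit 8 of 22 translocation genes fell, 2 of 24 degradation genes rose and 1 fell, and 9 of 12 genes of the ATF4 branch rose, where 21.4% of all genes passed, 10.3% higher and 11.2% lower. Between Ctr + 4-OHT and Ctr no gene of the 5 lists passed with edgeR, whereas DESeq2's Wald test called *Calr* lower and 3 genes of the ATF4 branch higher, where it called 0.489% of the 34560 genes to which it gave a p-value. The smallest adjusted p with edgeR were 0.174 for *Slc7a11* (0.69), 0.327 for *Calr* (-0.24), 0.537 for *Rnf5* (-0.28), 0.600 for *Ssr2* (-0.13) and 0.720 for *Creb3* (-0.11). The ATF4 branch had a median of 0.29 in this comparison of controls, and the 10 genes one of -0.023.

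**Figure D4:**
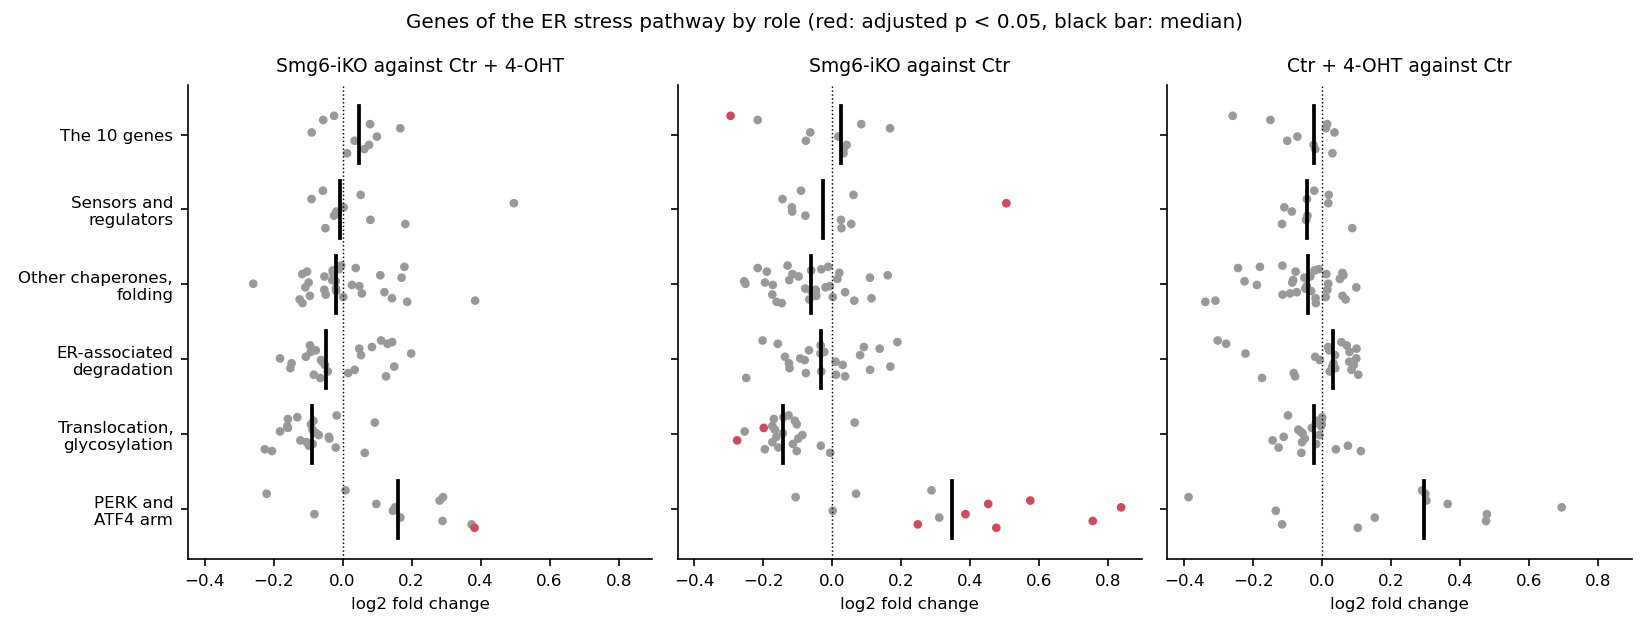
Log2 fold change (horizontal axes) of each tested gene of the 10 genes and of the 5 lists (rows) in the 3 comparisons, with the median as a black bar and genes with an adjusted p under 0.05 in red. The 10 genes, the sensors and the folding and degradation lists centre near 0, with medians between -0.062 and 0.049, while the ATF4 branch has medians of 0.16, 0.35 and 0.29.

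The libraries were then compared within their groups, to see which of the 10 genes varied together from embryo to embryo. Over the 11 libraries, as deviations of log2 CPM from group means, 30 of the 45 pairs of genes had a positive Pearson correlation and the median was 0.16. Points of one embryo and the scaling of each library are shared by all genes, so these values are descriptions. *Hspa5* and *Pdia4* varied together with r = 0.887, which was 0.746 without *Smg6*-iKO of embryo SMH_128, and *Xbp1* and *Manf* with r = 0.822. The sum of fibroblast and meningeal markers had r = 0.862 with *Xbp1* and 0.785 with *Manf*. With *Hspa5* and *Pdia4* the sum of choroid plexus markers had r = 0.604 and 0.760, and that of NPC markers 0.610 and 0.619. *Ern1* ran opposite to *Atf6* (r = -0.932, between -0.957 and -0.915 with any one library left out) and to *Hsp90b1* (r = -0.827, between -0.974 and -0.758). Of the 9 pairs with *Ern1*, 6 were negative. Marker sums moved with these 3 genes in the same libraries: the sum of NPC markers had r = 0.877 with *Hsp90b1*, 0.778 with *Atf6* and -0.899 with *Ern1*, and that of neuronal markers -0.709, -0.689 and 0.722. In Ctr + 4-OHT, for example, the NPC sums of embryos SMH_125, SMH_126, SMH_129 and SMH_131 were 4486, 4797, 5505 and 4597 CPM, in the same order of size as *Hsp90b1*. The part of the makeup of the cultures in these correlations was not tested. *Smg6*-iKO of embryo SMH_128 was the highest of its group for *Hspa5*, *Pdia4*, *Hsp90b1*, *Atf6*, *Sdf2l1*, *Creld2* and *Dnajb9* and the lowest for *Ern1*. It also had the highest sum of NPC markers in its group, with 4958 CPM beside 4375 to 4431 CPM in the other 3 libraries, and of choroid plexus markers, with 167 CPM beside 19.4 to 94.1 CPM. Over the 11 libraries the choroid plexus sum, given above for *Hspa5* and *Pdia4*, had r = 0.686 with *Sdf2l1*, 0.516 with *Creld2* and 0.389 with *Atf6*. With *Hsp90b1* it had r = 0.303, with *Dnajb9* 0.158 and with *Ern1* -0.362. The part of these markers was not tested.

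Most like *Hspa5* among 14828 genes with a mean of at least 1 CPM were *Asb1* (r = 0.936), *Gulp1* (0.936), *Zfp260* (0.935), *Tpm4* (0.932) and *Syap1* (0.932), over the same 11 libraries. The 5th and 95th percentiles of all genes were -0.617 and 0.669. Of the other 9 genes *Pdia4* came nearest, at rank 25, followed by *Hsp90b1* (r = 0.717, rank 464) and *Xbp1* (0.606), and *Ern1* was last with -0.556.

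**Figure D5:**
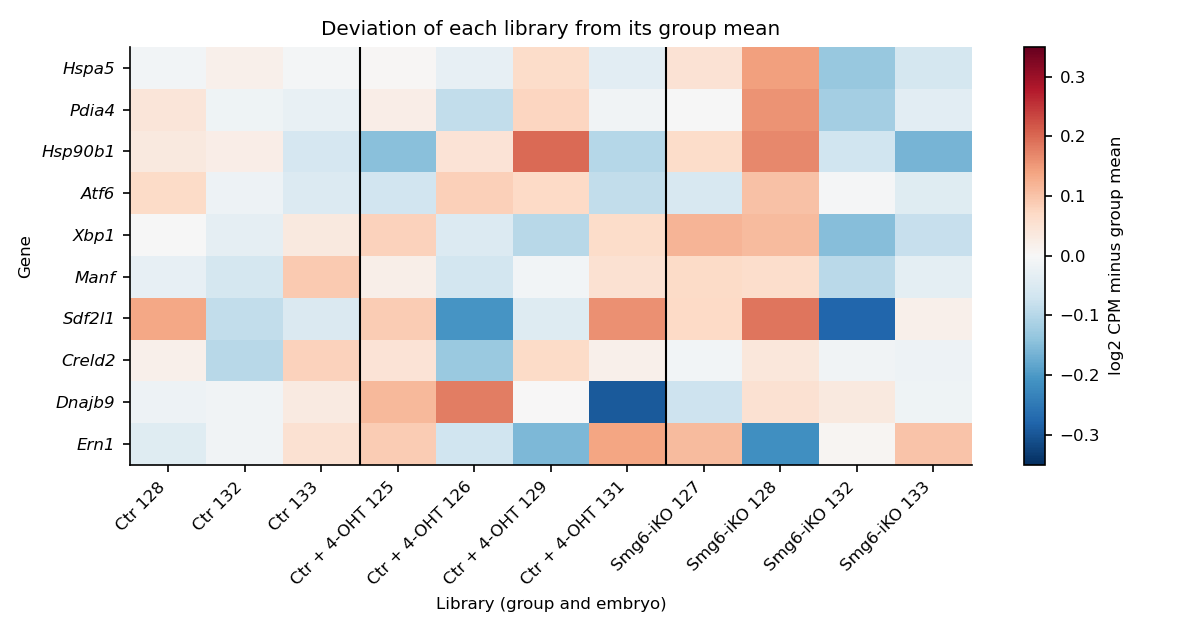
Deviation of each library (columns, with group and embryo) from its group mean in log2 CPM for the 10 genes (rows), red above and blue below the mean. *Ern1* in the bottom row is blue in *Smg6*-iKO of embryo SMH_128, in which *Hspa5*, *Pdia4* and *Hsp90b1* are red.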

How the data were processed

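Total RNA depleted of ribosomal RNA (TruSeq Stranded Total RNA, RiboZero Gold) was sequenced as single reads of 50 bases in 11 libraries from 8 embryos. The authors deposited counts per Ensembl gene without normalization, made with STAR 2.5.4b on GRCm38 (Ensembl release 92) and featureCounts 1.5.0 from reads on the strand of one gene that mapped to one position. Reads that fit several positions or overlap several genes were not counted, which lowers values of overlapping genes. Libraries held 26418249 to 33756875 counts, and no pair of one group was a duplicate (chi-square per gene between 11.0 and 43.0). Groups were taken from the sample labels. Symbols for 53620 of 53801 identifiers came from GENCODE M21, and gene positions were those deposited with the counts.

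Every comparison used only the libraries of the groups compared, in R 4.3.3 with edgeR 4.0.16 (filterByExpr, TMM, quasi-likelihood test, Benjamini-Hochberg adjustment over all tested genes, threshold 0.05). The SE of a log2 fold change was taken from it and the F statistic (absolute value over the root of F), and 95% intervals use the degrees of freedom of the test. CPM used TMM over all libraries, in which 18123 genes were kept, and correlations a prior count of 2. CPM per kb used the gene length in the files. Alternatives were DESeq2 size factors, upper-quartile normalization, other filters (none, or 10 counts in every library), limma-voom (limma 3.58.1), DESeq2 1.42.0, all libraries in one fit, a loess offset for gene length (span 0.3), the embryo as a block and each library left out. The edgeR test of each comparison was also run on simulated counts with known changes, and the outcome is not given here. The embryo numbers in the labels mark the same animal, and libraries of one embryo deviated together from their group means (r = 0.328, 0.399 and 0.425).

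The 10 genes and all lists were chosen with earlier results of these data known. Named beside them were, per list and comparison, up to 3 called genes with the largest log2 fold change or, with none, the gene with the smallest adjusted p. *Smg6* and the 5 genes most correlated with *Hspa5* were also named. *Atf4*, *Ddit3*, *Sesn2*, *Eif2ak3*, single markers, the folding genes called with the block and *Alg12* were named after their values were seen. Promoters came from RefSeq on GRCm38.p6. Plots and summaries used Python 3.11.15 with matplotlib 3.10.9 and pandas 2.3.3.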

Additional observations from a re-analysis of the deposited data

Results flagged for a closer look

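In groups of 4 libraries, the highest or lowest library was compared with the others by Dixon's criterion, which chance alone passes in about 1 of 20 groups. Of 52 groups of genes and conditions tested, 5 passed. *Creld2* stood at 22.3 CPM in *Smg6*-iKO of embryo SMH_128, beside 21.4 to 21.5 CPM in the other 3 libraries. In the same library *Creb3* stood at 43.5 CPM beside 38.1 to 38.7 CPM, and *Ssr2*, a subunit of the translocon-associated complex, at 101 CPM beside 88.6 to 90.6 CPM. *Creb3l1* stood at 5.77 CPM in *Smg6*-iKO of embryo SMH_127, beside 4.33 to 4.44 CPM. *Trib3*, a target of ATF4, was low in Ctr + 4-OHT of embryo SMH_131, with 15.6 CPM beside 19.0 to 19.1 CPM.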

How the results depend on the processing

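In *Smg6*-iKO against Ctr, 1 of the 10 genes was called, and 2 were with DESeq2's Wald test, without a filter, with the embryo as a replicate block and with the block and the length offset together (each time *Hsp90b1* and *Dnajb9*, both lower), while 0 were with all 11 libraries in one fit. With single libraries left out the number was 0 to 2, being 2 without *Smg6*-iKO of embryo SMH_128 and 0 without any other. In the other comparisons 0 of the 10 genes were called under every alternative. *Creb3l1* lost its call against Ctr with DESeq2 size factors, limma-voom, the length offset, the block with this offset and all 11 libraries (adjusted p = 0.0516 to 0.0642). Over all genes, calls went from 206 to 418 without a filter, 484 in one fit and 873 with DESeq2 against Ctr + 4-OHT, from 1663 to 3854 with the block, 4076 with block and offset, 2714 without a filter and 796 in one fit against Ctr, and from 39 to 60 in one fit, 169 with DESeq2 and 198 without a filter between the controls. With single libraries left out these counts were 66 to 174 (0.372% to 0.979% of genes), 570 to 2524 (3.15% to 14.1%) and 5 to 54 (0.0279% to 0.309%), and the shares given beside the counts of list genes move with them. The count moved by over 1.5 times without any library except *Smg6*-iKO of embryo SMH_128 and Ctr + 4-OHT of embryo SMH_126 in the first comparison and Ctr + 4-OHT of embryo SMH_129 in the last, and it rose that far without *Smg6*-iKO of embryo SMH_128 in the second. The share of higher calls moved from 64.6% to 37.6% with the length offset against Ctr + 4-OHT, and from 46.1% to 28.1% with the offset and 61.1% with upper-quartile normalization against Ctr.

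Small values without a call changed sign. Against Ctr + 4-OHT the length offset gave -0.0075 for *Calr*, -0.016 for *Pdia4*, -0.049 for *Creb3* and -0.039 for *Manf*; *Creb3* was -0.0042 with DESeq2 size factors, -0.0078 in one fit and -0.011 with the Wald test, which gave -0.0012 for *Manf*. Against Ctr the length offset gave -0.0018 for *Atf6*, -0.016 for *Hspa5* and -0.014 for *Manf*, and with the block -0.0048 for *Xbp1*, -0.033 for *Hspa5* and -0.034 for *Manf*. With single libraries left out, uncalled log2 fold changes that crossed 0 ranged in *Smg6*-iKO against Ctr + 4-OHT from -0.12 to 0.035 for *Dnajb9*, -0.12 to 0.0097 for *Hsp90b1*, -0.024 to 0.067 for *Pdia4*, -0.062 to 0.30 for *Slc7a11*, -0.048 to 0.041 for *Creb3* and -0.012 to 0.037 for *Manf*. In *Smg6*-iKO against Ctr the ranges were -0.13 to 0.019 for *Sdf2l1*, -0.042 to 0.053 for *Creld2*, -0.017 to 0.075 for *Hspa5* and -0.0095 to 0.074 for *Manf*. Between the controls they were -0.0064 to 0.046 for *Xbp1*, -0.030 to 0.062 for *Ern1*, -0.013 to 0.11 for *Sdf2l1*, -0.047 to 0.063 for *Prdx4*, -0.053 to 0.0099 for *Atf6*, -0.057 to 0.077 for *Creb3l1*, -0.078 to 0.0088 for *Rpn2* and -0.0010 to 0.082 for *Manf*. The cause was not tested.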

Other observations

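The ERSE shown for *Creld2* also lies in the promoter of its neighbour *Alg12*, a mannosyltransferase of N-glycan synthesis that is transcribed in the other direction (chr15:88819520-88819538 in both, from -220 to -202 for *Alg12*). *Alg12* was noticed after its values were seen, as the only gene called among the 21 (against Ctr + 4-OHT) or 22 (against Ctr) tested of 37 genes with an ERSE, where 1.17% and 9.25% of all genes were called. It had 15.9, 14.998, 14.3 and 16.5 CPM in *Smg6*-iKO of embryos SMH_127, SMH_128, SMH_132 and SMH_133, 10.01 to 11.2 CPM in Ctr + 4-OHT and 10.9 to 11.9 CPM in Ctr, so every *Smg6*-iKO library was above every control. On the log2 scale *Alg12* rose by 0.55 relative to Ctr + 4-OHT (adjusted p = 0.0106, edgeR) and by 0.44 relative to Ctr (adjusted p = 0.0117, and 0.00191 with the embryo as a block), where that of *Creld2* was 0.10 and 0.017 without a call. Without *Smg6*-iKO of embryo SMH_133 the adjusted p of *Alg12* against Ctr + 4-OHT was 0.0532, and it stayed under the threshold under the other alternatives run for these 2 comparisons. The difference between *Alg12* and *Creld2* was not tested.

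The median log2 fold change of the tested genes with an ERSE, the 10 genes left aside, was 0.037 against Ctr + 4-OHT, -0.025 against Ctr and -0.093 between the controls, beside 0.012, 0.0055 and 0.0045 over all genes.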
